A study of Mus musculus with 8 samples.

Results

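The SOXF transcription factors of the endothelium and the Notch genes that work with them were examined in whole lung of mice given lipopolysaccharide (LPS). The members, 10 genes chosen by symbol from the 24584 genes of the deposited tables, were Sox17, Sox18, Sox7, Dll4, Jag1, Notch1, Notch4, Lfng, Hey1 and Hes1. All 10 were found, and all 10 were among the 15706 genes with enough counts to be tested. They were chosen with the result of the comparison described here already known, so their values are a description. Their p-values serve below only to count how many passed a threshold, and support nothing.

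All 8 mice were wild-type male ICR mice, an outbred stock, aged 6 to 8 weeks. All received LPS from Escherichia coli O111:B4 by intraperitoneal injection at 5 mg/kg, and their lungs were taken 12 h later. The LPS group (4 mice) received LPS alone, and the LPS + Tan group (4 mice) also received tangeretin, a flavonoid of citrus fruits, at 50 mg/kg into the peritoneum 30 min before LPS. Untreated mice and mice given tangeretin alone were not analysed here, so each value compares LPS-treated lungs with LPS-treated lungs. Between 38895654 and 39931970 reads per lung were counted on genes. Nothing in the labels gives a batch, and the mean correlation of a lung with the other 7 on the log2 CPM scale (CPM being read counts relative to library size) ran from 0.986 to 0.990.

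Sox7, Sox17 and Sox18 form the SOXF family, transcription factors made by endothelial cells, where they act in vessel formation and, for Sox17 above all, in arterial identity. Notch signalling passes between touching cells. A ligand such as Dll4 or Jag1 on one cell binds a Notch receptor on the next, the receptor is cut, and its inner part enters the nucleus, joins the DNA-binding protein RBPJ and turns on targets such as Hey1 and Hes1. Fringe enzymes such as Lfng add sugars to the receptor and so bias it towards Delta ligands over Jagged ligands. In vessels Dll4 and Notch mark arteries and sprouting tips, and SOXF factors are known to act on several Notch genes.

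The members split into a set that was higher in every LPS + Tan lung and a set whose groups overlapped. Sox17, Sox18, Sox7, Hey1, Dll4 and Lfng were higher in all 4 LPS + Tan lungs than in any LPS lung, which is 6 of 10 members beside 1.58% of all tested genes. The same 6 had an unadjusted p below 0.05 by edgeR's quasi-likelihood test, beside 2.87% of all tested genes that were higher at that threshold, and 0 of 10 were lower, beside 2.25%. Sox17 and Hey1 also had a log2 fold change above 1, which is 2 of 10 beside 0.35%. These shares come from the comparison on which the members were chosen, and nothing is read from them. With p adjusted over all 15706 genes, 0 passed 0.05 in edgeR, against 804 unadjusted. DESeq2, run on all 24584 genes, gave an adjusted p to 15507 and called 35 of them (0.226%), among them 5 members (Sox17, Sox18, Hey1, Dll4 and Lfng), from which again nothing is read. The median log2 fold change was 0.45 over the members and 0.01 over all tested genes.

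**Figure D1:**
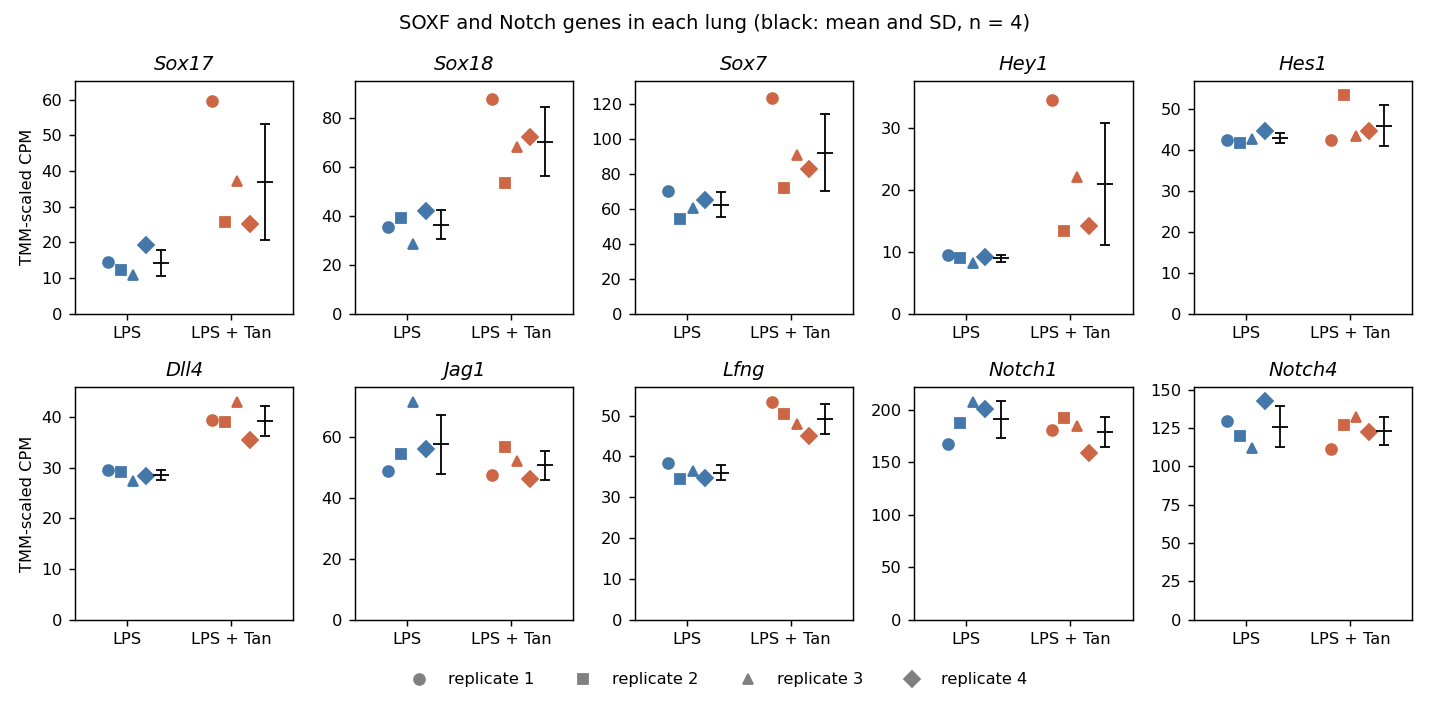
CPM of the 10 members in each lung, with a symbol for each replicate number, LPS in blue and LPS + Tan in orange, and the mean with its SD in black (n = 4). Every orange point lies above every blue point for Sox17, Sox18, Sox7, Hey1, Dll4 and Lfng, with the smallest gap in Sox7 (71.9 against 70.6), and the points of Hes1, Jag1, Notch1 and Notch4 overlap.

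The promoter sequence of 2 of the 6 separated members, Dll4 and Lfng, is shown here from the RefSeq table of GRCm38.p6. Whether it has a part in the values of these genes was not tested. The table held 5 of the 10 members, Dll4, Lfng, Notch1, Notch4 and Jag1, and no entry for Sox17, Sox18, Sox7, Hey1 and Hes1. The 250 bases before the RefSeq transcript start of each gene in that table were searched on both strands for 4 strings of letters, the RBPJ core TGGGAA, the E-box CACGTG that HEY and HES proteins can bind, and the SOX cores ACAATG and ACAAAG. Capitals mark the RBPJ core (TTCCCA where it lies on the opposite strand) and the E-box. The Dll4 window lies at chr2:119325534-119325783 and the Lfng window at chr5:140607091-140607340, both on the forward strand.
Dll4: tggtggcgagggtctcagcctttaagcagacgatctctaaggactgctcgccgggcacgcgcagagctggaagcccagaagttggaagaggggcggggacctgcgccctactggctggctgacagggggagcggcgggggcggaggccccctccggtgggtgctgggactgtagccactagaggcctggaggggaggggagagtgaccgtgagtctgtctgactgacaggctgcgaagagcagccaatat
Lfng: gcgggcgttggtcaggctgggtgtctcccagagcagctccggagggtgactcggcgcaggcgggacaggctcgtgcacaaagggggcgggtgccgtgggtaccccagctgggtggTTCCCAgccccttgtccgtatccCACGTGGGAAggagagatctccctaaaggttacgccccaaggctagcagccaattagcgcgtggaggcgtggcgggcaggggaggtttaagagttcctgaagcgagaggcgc
These starts are not the outer bounds given for the genes below, which come from GENCODE, and the windows of Lfng, Notch1, Notch4 and Jag1 reach into those bounds or lie within them. The Lfng window held the RBPJ core at 135 bases before its RefSeq start on the opposite strand and again at 108 bases on the strand of the gene. The second RBPJ core shares 2 bases with an E-box that begins 112 bases before the same start, and a SOX core (ACAAAG) lies 174 bases before it. The Dll4 window held none of the 4 strings, nor did that of Notch1, and those of Notch4 and Jag1 each held ACAATG once on the opposite strand. Of 27025 promoters of the same length, 21.5% held the RBPJ core, 6.05% the E-box, 11% ACAATG and 16.5% ACAAAG. A string found in a window is a description of the sequence and not a binding site.

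Sox17 (chr1:4490931-4497354, reverse strand, GRCm38 as are the positions that follow), the SOXF factor tied most closely to arteries, showed the largest fold change of the members. Its CPM, the counts scaled to the total of the lung times its TMM factor (which evens out differences in composition), was 14.4, 12.3, 10.7 and 19.3 in LPS replicates 1 to 4. In LPS + Tan replicates 1 to 4 it was 59.7, 25.7, 37.2 and 25.1. Every LPS + Tan lung was above every LPS lung, and LPS + Tan replicate 1 stood well above the other lungs of its group. The means were 14.2 ± 3.73 and 36.9 ± 16.2 (SD, n = 4), and the log2 fold change was 1.38 (SE, its standard error, 0.29). In the annotation the exons of Sox17 overlap those of Gm37587 on the other strand, and whether the counting used strand is not given in the sources used here.

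Sox18 (chr2:181669836-181671640, reverse strand), a factor of both blood and lymphatic vessels, was also higher in every LPS + Tan lung. Its CPM was 35.6, 39.3, 28.4 and 42.0 in LPS replicates 1 to 4. It was 87.5, 53.2, 67.9 and 72.3 in LPS + Tan replicates 1 to 4. Here again LPS + Tan replicate 1 was the highest lung, but replicate 4, low in Sox17, came next. The log2 fold change was 0.95 (SE 0.16), from means of 36.3 ± 5.92 and 70.2 ± 14.1 (SD, n = 4).

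Sox7 (chr14:63943673-63950732, forward strand), the third SOXF factor, had the smallest change of the family. Its CPM was 70.6, 54.1, 60.7 and 65.0 in LPS replicates 1 to 4. It was 123.6, 71.9, 90.8 and 82.9 in LPS + Tan replicates 1 to 4. The groups met almost edge to edge, since LPS + Tan replicate 2 was within 2 CPM of LPS replicate 1. The log2 fold change was 0.56 (SE 0.16).

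Per length, on the deposited FPKM values, the family was dominated by Sox18 and Sox7, and Sox17 was its least abundant gene in both groups. The FPKM of the 3 genes together was 43.5 ± 5.24 in the LPS group and 79.4 ± 19.3 in the LPS + Tan group (SD, n = 4), and the groups did not overlap. Sox17 supplied 4.95 to 6.88% of that sum in the LPS lungs and 5.91 to 10.2% in the LPS + Tan lungs, ranges that overlap. The share of Sox7 was 38.6 to 49.0% in the LPS lungs and 34.1 to 37.1% in the LPS + Tan lungs, ranges that do not. Sox18 supplied 50.7 ± 4.74% and 55.8 ± 3.02%, so it was the most abundant of the 3 by mean in both groups.

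Dll4 (chr2:119325784-119335962, forward strand), the Delta ligand of arteries and tip cells, showed a smaller but tighter difference than the SOXF genes. Its CPM was 29.5, 29.1, 27.3 and 28.3 in LPS replicates 1 to 4. It was 39.4, 39.0, 42.9 and 35.5 in LPS + Tan replicates 1 to 4. The LPS lungs lay within 3 CPM of each other, and replicate 1 did not lead the LPS + Tan lungs here as it did in the SOXF genes. The log2 fold change was 0.46 (SE 0.08), from means of 28.5 ± 0.94 and 39.2 ± 3.04 (SD, n = 4). An antisense gene, Gm14207, overlaps Dll4 in the annotation, but it had only 0.33 to 1.01 CPM in the 8 lungs.

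Jag1 (chr2:137081456-137116644, reverse strand), the Jagged ligand that competes with Dll4 in sprouting vessels, did not share this pattern. Its CPM was 48.9, 54.4, 71.5 and 56.2 in LPS replicates 1 to 4. It was 47.7, 56.8, 52.1 and 46.2 in LPS + Tan replicates 1 to 4. The groups overlap, with a single high lung, LPS replicate 3, and the log2 fold change was -0.19 (SE 0.12). The FPKM of Dll4 was 1.30 to 2.05 times that of Jag1 in the LPS lungs and 2.33 to 2.81 times in the LPS + Tan lungs. This ratio did not overlap between the groups, with means of 1.72 ± 0.31 and 2.63 ± 0.22 (SD, n = 4).

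The receptors Notch1 and Notch4 did not separate the groups. Notch1 (chr2:26457903-26516663, reverse strand), the main receptor of the endothelium, had a CPM of 167.5, 187.0, 207.4 and 200.7 in LPS replicates 1 to 4 and of 180.6, 192.1, 184.4 and 158.7 in LPS + Tan replicates 1 to 4. Notch4 (chr17:34564268-34588503, forward strand), a receptor largely restricted to endothelial cells, had 129.5, 119.6, 112.2 and 142.9 CPM in LPS replicates 1 to 4 and 111.1, 126.8, 132.0 and 122.5 in LPS + Tan replicates 1 to 4. The groups overlap in both genes. Their log2 fold changes were -0.09 (SE 0.10) and -0.03 (SE 0.10), and a difference of this size in either direction cannot be resolved with 4 lungs a group. The ratio of Notch1 to Notch4 in FPKM was 1.07 ± 0.17 in the LPS group and 1.02 ± 0.10 in the LPS + Tan group (SD, n = 4).

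Lfng (chr5:140607320-140615545, forward strand), the lunatic fringe enzyme, had a difference close in size to that of Dll4. Its CPM was 38.4, 34.5, 36.4 and 34.7 in LPS replicates 1 to 4. It was 53.3, 50.5, 47.8 and 45.0 in LPS + Tan replicates 1 to 4. Each group was narrow and the groups were clearly apart. The log2 fold change was 0.45 (SE 0.08), from means of 36.0 ± 1.80 and 49.2 ± 3.57 (SD, n = 4).

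The targets Hey1 and Hes1 parted. Hey1 (chr3:8663359-8667256, reverse strand), a repressor of venous genes in arterial endothelium, had a CPM of 9.49, 8.92, 8.15 and 9.15 in LPS replicates 1 to 4. It had 34.5, 13.3, 22.1 and 14.1 in LPS + Tan replicates 1 to 4. The LPS lungs were almost alike, with an SD of 0.57 about a mean of 8.93, whereas the LPS + Tan lungs were spread widely, with an SD of 9.83 about a mean of 21.0. Its log2 fold change was 1.23 (SE 0.27).

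Hes1 (chr16:30064384-30067796, forward strand), a repressor made in many cell types, had a CPM of 42.3, 41.7, 42.7 and 44.6 in LPS replicates 1 to 4. It had 42.3, 53.4, 43.3 and 44.6 in LPS + Tan replicates 1 to 4. Only LPS + Tan replicate 2, the lowest lung for Hey1 in its group, lay above the LPS range. The log2 fold change of Hes1 was 0.10 (SE 0.09). The FPKM of Hey1 was 0.14 to 0.16 times that of Hes1 in the LPS lungs and 0.18 to 0.59 times in the LPS + Tan lungs, without overlap.

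Levels per length put Hes1 first in the LPS lungs at 24.4 ± 0.82 FPKM (SD, n = 4) and Sox17 last at 2.46 ± 0.66. Between them stood, in this order, Sox18, Notch1, Sox7, Notch4, Lfng, Dll4, Jag1 and Hey1. Only Lfng and Dll4, Dll4 and Jag1, and Jag1 and Hey1 were neighbours whose lungs did not overlap in the LPS group, so most of the order among the upper 6 genes is not resolved. In the LPS + Tan lungs Sox18 came first at 44.1 ± 9.28 FPKM, followed by Sox7, Hes1, Lfng, Notch1, Notch4, Dll4, Hey1, Sox17 and Jag1. There the neighbours without overlap were Hes1 and Lfng, and Notch4 and Dll4. Jag1 was above Hey1 and Sox17 by mean in the LPS lungs and below both in the LPS + Tan lungs.

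**Figure D2:**
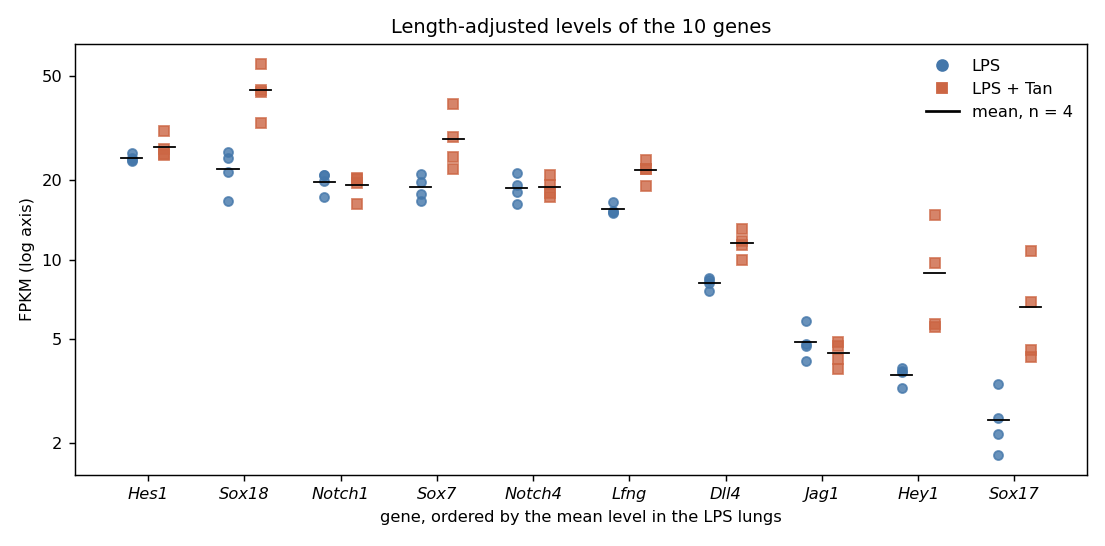
FPKM of the 10 members on a log axis, ordered by the mean of the LPS lungs, with a point for each lung and a line at the mean (n = 4 per group). Sox18 lay at 16.8 to 25.7 FPKM in the LPS lungs and at 33 to 55.7 in the LPS + Tan lungs, and Sox17 at 1.80 to 3.36 and 4.27 to 10.8.

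The LPS + Tan lungs differed among themselves in a recurring order. Replicate 1 was the highest of its group in 5 of the 6 separated members, all but Dll4, in which replicate 3 was the highest. Replicate 2 was the lowest in 3 (Sox18, Sox7 and Hey1) and replicate 4 in the other 3 (Sox17, Dll4 and Lfng). Relative to the mean of the LPS lungs on the log2 scale, replicate 1 was higher by 2.11 in Sox17 and 1.95 in Hey1, and replicate 3 by 1.43 and 1.31. Replicates 2 and 4 were higher by 0.90 and 0.86 in Sox17 and by 0.58 and 0.66 in Hey1. Dll4 and Lfng showed no such spread, with differences from 0.31 to 0.59 over the 4 lungs. Without LPS + Tan replicate 1 the number of members past a log2 fold change of 1 at an unadjusted p below 0.05 went from 2 to 1. The share of all genes past both thresholds under that omission is not given here, and nothing is read from the count.

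**Figure D3:**
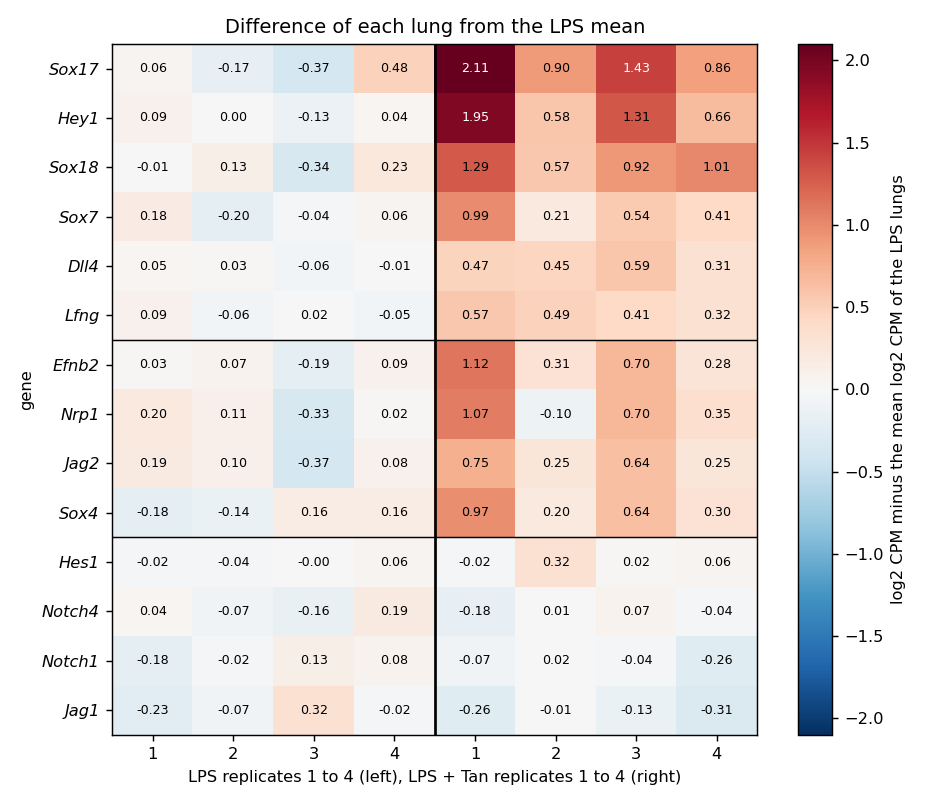
Log2 CPM of each lung minus the mean log2 CPM of the 4 LPS lungs, for 10 genes with an unadjusted p below 0.05 (6 members above, 4 other genes in the middle) and for the 4 members with overlapping groups below, with red for higher and blue for lower. LPS + Tan replicates 1 and 3 are the darkest columns for Sox17 (2.11 and 1.43), Hey1 (1.95 and 1.31), Efnb2 (1.12 and 0.70) and Jag2 (0.75 and 0.64).

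Hey1 was also the tested gene whose pattern was most like that of Sox17. Likeness was the root mean square difference of log2 CPM over the 8 lungs after the mean of each gene was removed, and it was 0.22 for Hey1. Msc, Wnt3a, Tmeff1 and Cd209b followed at 0.30, 0.30, 0.31 and 0.33. The counts of Msc (12 to 135 per lung), Wnt3a (12 to 115) and Cd209b (2 to 40) were low. Sox18 ranked number 7 and Sox7 number 64, while Dll4 and Lfng ranked 349 and 355. The 8 lungs share the group difference on which Sox17 and Hey1 were chosen, so this is a description of pattern and nothing more.

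The rest of the Notch pathway, given by a list of 60 genes that leaves out the members, gave few calls. Of the 55 that were tested, 2 were higher at an unadjusted p below 0.05 (3.64%, against 2.87% of all tested genes) and 0 were lower (against 2.25%), by edgeR's test. DESeq2 also called 2 higher and 0 lower at an unadjusted p below 0.05, and limma on log2(FPKM + 1) 3 and 0. Over all genes DESeq2 called 2.33% higher and 2.08% lower, and limma 4.1% and 1.76%, which holds for the lists below too. No gene of the list passed an adjusted p of 0.05 by any of these tools. The median log2 fold change was 0.00, beside 0.01 for all tested genes, and 28 of the 55 had a positive sign. Without LPS + Tan replicate 4 the list gave 7 higher and 2 lower genes at an unadjusted p below 0.05, and without LPS + Tan replicate 2 it gave 5 and 2. Over all genes these omissions gave 4.78% higher and 4.56% lower, and 5.15% and 5.06%, so calls became more frequent in general.

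The pair that was higher consisted of Jag2, a ligand, and Efnb2, the ephrin ligand of arteries and a known Notch target. Efnb2 had a CPM of 103.9, 106.8, 89.7 and 108.7 in LPS replicates 1 to 4 and of 221.1, 126.2, 165.8 and 123.5 in LPS + Tan replicates 1 to 4. The groups did not overlap, and replicates 1 and 3 again led. Its log2 fold change was 0.64 (SE 0.18) (edgeR, unadjusted p = 0.00455, adjusted p = 0.905). Jag2 had a CPM of 30.2, 28.5, 20.4 and 28.1 in LPS replicates 1 to 4 and of 44.5, 31.4, 41.2 and 31.5 in LPS + Tan replicates 1 to 4. These groups also did not overlap, with a gap of about 1 CPM, and the log2 fold change was 0.47 (SE 0.15) (edgeR, unadjusted p = 0.0117, adjusted p = 0.924).

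The other ligands, receptors and modulators did not pass an unadjusted p of 0.05. Dll1, a Delta ligand of many tissues, had a log2 fold change of -0.29 (SE 0.16). Notch3, the receptor of smooth muscle and pericytes, had 0.38 (SE 0.18) (edgeR, unadjusted p = 0.0597), and its highest lungs were LPS + Tan replicates 1 and 3 at 96.1 and 79.9 CPM against 48.7 to 66.1 CPM in the LPS lungs. Notch2 had -0.12 (SE 0.16). The other fringe enzymes, Mfng and Rfng, had 0.20 (SE 0.09) and 0.04 (SE 0.11). In all, 27 genes that modify or process ligands and receptors were tested, and edgeR and DESeq2 called 0 of them higher or lower at an unadjusted p below 0.05, while limma on log2(FPKM + 1) called 1.

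The nuclear genes gave no call with all lungs in the fit. Rbpj, the DNA-binding partner of the receptor, had a log2 fold change of -0.20 (SE 0.20), and edgeR, DESeq2 and limma called 0 of the 15 nuclear genes at an unadjusted p below 0.05. In edgeR without LPS + Tan replicate 4, Spen, Maml1 and Crebbp were higher at that threshold, and without LPS replicate 1 Rbpj was lower. These omissions gave 4.78% higher and 2.54% lower over all genes. Among the targets other than Efnb2, the relatives of Hey1 had negative values, -0.17 for Hey2 and -0.14 for Heyl with standard errors of 0.20 and 0.16, and Nrarp, a feedback inhibitor, had -0.16 (SE 0.17). The FPKM of Hey1 was 0.77 to 1.4 times that of Hey2 in the LPS lungs and 1.33 to 5.32 times in the LPS + Tan lungs, ranges that overlap slightly.

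**Figure D4:**
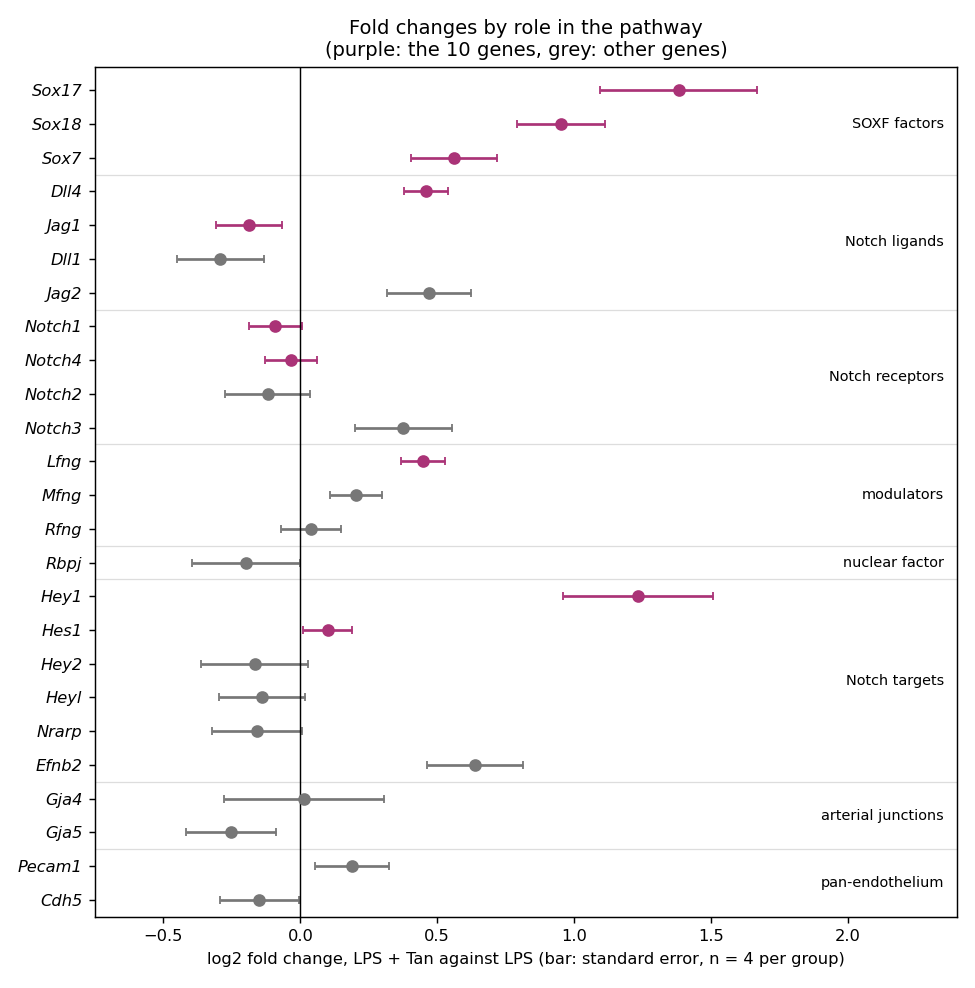
Log2 fold change of LPS + Tan against LPS with its standard error (n = 4 per group), for the members in purple and other genes in grey, grouped by role. The SOXF factors (0.56 to 1.38) and Hey1 (1.23) lie far to the right, whereas Rbpj (-0.20), Hey2 (-0.17), Notch1 (-0.09), Notch2 (-0.12) and Cdh5 (-0.15) lie at or left of 0.

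Among 9 tested SOX factors outside the SOXF family, Sox4 was higher and Sox11 lower at an unadjusted p below 0.05 (11.1% each way, against 2.87% higher and 2.25% lower of all tested genes). Sox4, a factor of endothelial, epithelial and immune cells, had a CPM of 39.9, 41.0, 50.6 and 50.5 in LPS replicates 1 to 4 and of 88.5, 52.0, 70.3 and 55.8 in LPS + Tan replicates 1 to 4, with a log2 fold change of 0.55 (SE 0.17). The groups did not overlap, and replicates 1 and 3 led once more. Sox11 stood at 1.14 to 3.32 CPM in all lungs and had a log2 fold change of -0.77 (SE 0.31), with overlapping groups. Sox11 kept an unadjusted p below 0.05 without LPS replicate 1 or LPS + Tan replicate 4 and lost it without any of the other 6 lungs, and on the log2(FPKM + 1) scale its fold change was -0.15. The count of higher genes was 2, Sox4 and Sox13, without LPS replicate 4 or LPS + Tan replicate 4, where 2.91% and 4.78% of all genes were higher. The median of these 9 genes was -0.05.

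Of 20 tested genes known to act on endothelial identity upstream, such as the VEGF receptors, the ETS factors and the flow-responsive KLF factors, 3 were higher at an unadjusted p below 0.05 (15%, against 2.87% of all tested genes) and 0 were lower. DESeq2 and limma on log2(FPKM + 1) also called 3 and 0, limma with Gata2 in place of Nrp1. Those of edgeR were Kdr, the main VEGF receptor, with a log2 fold change of 0.37 (SE 0.15), Nrp1, its co-receptor, with 0.55 and 0.22, and Klf4 with 0.36 and 0.15. All of these had overlapping groups. Nrp1 ran from 135.5 to 196.2 CPM in the LPS lungs and from 159.1 to 357.5 CPM in the LPS + Tan lungs, with LPS + Tan replicate 2 inside the LPS range. The count was 0 without LPS replicate 3 or without LPS + Tan replicate 1, 1 without LPS replicate 1, LPS replicate 2 or LPS + Tan replicate 3, 2 higher and 1 lower without LPS + Tan replicate 4, and 3 higher and 1 lower without LPS + Tan replicate 2. Over all genes the share called higher ran from 1.69% to 5.15% under these omissions, and the share called lower from 1.33% to 5.06%.

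Markers of arterial endothelium other than the members gave calls for some genes. Of 16 tested, 4 were higher at an unadjusted p below 0.05 (25.0%, against 2.87%) and 1 was lower (6.25%, against 2.25%), and the median log2 fold change was 0.13. No marker passed an adjusted p of 0.05 by edgeR, DESeq2 or limma. Besides Efnb2 and Nrp1, which were also on other lists, the higher genes were Fbln5, an elastic fibre protein, with a log2 fold change of 0.52 (SE 0.17), and Stmn2 with 0.95 and 0.29 at 1.39 to 5.39 CPM. Depp1 was lower, with a log2 fold change of -0.39 (SE 0.15). The arterial gap junction genes did not follow, with log2 fold changes of 0.01 for Gja4 and -0.25 for Gja5 and standard errors of 0.29 and 0.17. Gja4 stood at 74.1 CPM in LPS + Tan replicate 4 and at 30.7 to 32.3 CPM in the other LPS + Tan lungs. The count of arterial markers was 3 without LPS replicate 4, and without LPS + Tan replicate 4 it was 4 higher and 2 lower, Gja4 being among the lower. Over all genes these omissions gave 2.91% higher and 2.0% lower, and 4.78% and 4.56%.

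Whole lung mixes many cell types, so more endothelial cells of a kind and more RNA per cell cannot be told apart in these values. The 18 pan-endothelial markers summed to 6470 to 7782 CPM in the LPS lungs and 7584 to 8124 CPM in the LPS + Tan lungs, and the ranges overlap. Of these markers 3 were higher at an unadjusted p below 0.05 (16.7%, against 2.87% of all tested genes, namely Tek, Kdr and Eng, with log2 fold changes of 0.51, 0.37 and 0.29) and 0 were lower by edgeR. DESeq2 and limma on log2(FPKM + 1) gave the same counts, limma with Clec14a in place of Tek. The higher count ran from 0, without LPS replicate 2, LPS replicate 3 or LPS + Tan replicate 1, to 6 without LPS replicate 4, with 5, and 1 lower, without LPS + Tan replicate 2 and 1 without LPS replicate 1. Over all genes 2.91% were higher without LPS replicate 4 and 3.1% without LPS replicate 1. Without LPS + Tan replicate 2 it was 5.15% higher and 5.06% lower. The general markers Pecam1 and Cdh5 had log2 fold changes of 0.19 and -0.15 with standard errors of 0.13 and 0.14. None of the 18 was at 0 in any lung.

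Set against the pan-endothelial sum of the same lung, 5 of the 6 separated members kept groups that did not overlap, all but Sox7. The share of all tested genes without overlap on this scale is not given here. The members were chosen on this comparison, so nothing is read from the count. The pan-endothelial sum covers markers of the whole endothelium, so it cannot follow the arterial part alone. Sox17 stood at 0.15 to 0.25% of that sum in the LPS lungs and at 0.33 to 0.73% in the LPS + Tan lungs. Hey1 stood at 0.11 to 0.14% and 0.17 to 0.42%. The mean share was 0.51% and 0.90% for Sox18, 0.40% and 0.50% for Dll4, and 0.50% and 0.63% for Lfng, in the LPS and LPS + Tan lungs. Sox7 had 0.82 to 1.0% in the LPS lungs and 0.94 to 1.52% in the LPS + Tan lungs. Efnb2, Jag2 and Sox4, which did not overlap in CPM, overlapped on this scale, while the ratio of their group means was 1.42, 1.27 and 1.35 on it and 1.56, 1.39 and 1.47 in CPM.

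Markers of the other vessel types varied as well. Of 13 tested capillary markers, 3 were higher at an unadjusted p below 0.05 (23.1%, against 2.87% of all tested genes) and 0 lower by edgeR and DESeq2, Sema3c, Hpgd and Tbx2, with log2 fold changes of 0.39, 0.90 and 0.22, and limma on log2(FPKM + 1) called 4 higher. No capillary marker was called without LPS replicate 2, LPS replicate 3, LPS + Tan replicate 1 or LPS + Tan replicate 3. Without LPS + Tan replicate 4 the calls were Cd93 and Ednrb and none of these 3, and without LPS + Tan replicate 2 there were 5. Over all genes 4.78% and 5.15% were higher under these omissions. The summed CPM of the list was 3090 to 4318 in the LPS lungs and 3965 to 5417 in the LPS + Tan lungs, with LPS + Tan replicate 1 the highest. Of 10 venous markers, 1 was higher (10%, against 2.87% of all tested genes in edgeR) and 0 were lower by edgeR, DESeq2 and limma. It was Ephb4, the receptor of Efnb2, with a log2 fold change of 0.33. The venous count was 3 higher without LPS replicate 1, and 2 higher and 1 lower without LPS + Tan replicate 2. Over all genes 3.1% were higher in the first of these fits, and 5.15% higher and 5.06% lower in the other. The 7 lymphatic markers all had a negative sign, with 0 past an unadjusted p of 0.05 in edgeR with all lungs and 1, Lyve1, in DESeq2. In edgeR Lyve1 was lower without LPS replicate 2, without LPS + Tan replicate 2 or with no count filter, and Ccl21a without LPS + Tan replicate 4. Over all genes 1.91%, 5.06%, 2.31% and 4.56% were lower there. The list summed to 2107 to 3639 CPM in the LPS lungs and 1496 to 2465 CPM in the LPS + Tan lungs. Most of this sum was Lyve1, at 1831 to 3304 and 1225 to 2200 CPM. The part of these lists in the values of the members was not tested.

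Outside the endothelium edgeR's test picked out 1 gene, a pericyte gene. Of 10 smooth muscle and pericyte markers only Rgs5 passed an unadjusted p of 0.05 with all lungs in the fit, at 44.7 to 54.1 CPM in the LPS lungs and 66.0 to 69.7 CPM in the LPS + Tan lungs, and it was the list gene that DESeq2 called at an adjusted p below 0.05. That is 10% of the list, against 2.87% of all tested genes. The count was 3 without LPS + Tan replicate 4, and 2 without LPS replicate 1 or LPS + Tan replicate 2, where 4.78%, 3.1% and 5.15% of all genes were higher. The sum of that list was 490.9 to 627.0 CPM in the LPS lungs and 481.3 to 649.2 CPM in the LPS + Tan lungs. Epithelial markers (10 genes) summed to 18630 to 26260 and 17210 to 27130 CPM, leukocyte markers (12 genes) to 2170 to 2871 and 2033 to 2971 CPM, and red cell genes (5 genes) to 1415 to 3427 and 1315 to 2133 CPM. Most of the epithelial sum was Scgb1a1, at 13030 to 17990 and 11490 to 17150 CPM. Most of the leukocyte sum was S100a8, at 1334 to 1808 and 1205 to 1731 CPM. In these 3 lists edgeR and limma called 0 genes at an unadjusted p below 0.05 and DESeq2 called 2 red cell genes lower. No marker of the 4 lists was at 0 in any lung, and their part in the result was not tested.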

How the data were processed

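Bulk RNA-seq of lung from 4 LPS and 4 LPS + Tan mice was analysed, grouped by the labels. The authors deposited raw read counts per gene, without normalization, and FPKM values, which scale each count to the length of the gene and the total of the sample. The submitters' processing notes name the build GRCm38 (mm10). Which aligner, counter, annotation and strand setting were used is not given in the sources used here. Methods describe TRIzol extraction and the VAHTS Universal V6 kit, whereas the labels name other extraction and library kits. No column of sample values was left without a sample (0).

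Counts were filtered with filterByExpr, scaled by TMM and tested with the quasi-likelihood test of edgeR 4.0.16 in R 4.3.3, with group as the only term and Benjamini-Hochberg adjustment over 15706 genes. CPM are TMM-scaled. Levels were compared between genes on FPKM only. Replicates are separate mice by the labels, and no pair of samples within a group agreed within sampling noise (ratio of 8.61 to 28.3 to that noise over 12 pairs). Scripts were tested on simulated data.

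The members and the gene lists were chosen with earlier results of these data known. Named genes were all members, the list genes with an unadjusted p below 0.05, 15 pathway and vessel genes set by name, and the 5 genes most like Sox17 after an offset of 0.5 CPM. The lists held 60 other Notch genes, of which Hes3 is not among the genes of the tables, and 16 other SOX factors, of which Sox1, Sox3 and Sox14 are not. Positions of genes are from GENCODE on GRCm38, and promoters from RefSeq. Alternatives were DESeq2 1.42.0, RLE scaling, no count filter, a filter of 1 CPM in 4 samples, limma 3.58.1 on log2(FPKM + 1) and log2(FPKM + 0.1), a replicate block, and the omission of each sample. CPM without TMM factors and the percent of the pan-endothelial sum were added after seeing the data.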

Additional observations from a re-analysis of the deposited data

Results flagged for a closer look

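Each group of 4 lungs was examined for a highest or lowest lung whose gap to its neighbour took up more of the range of the group in log2 CPM than Dixon's critical value for 4 samples. This was done for the members and the other genes whose values are given, 100 groups in all, and 6 were found, where chance gives about 1 in 20, or 5. The genes include 6 that were named after their values were seen, Spen and Erg among them. None of those found was a member. Notch2 was high in LPS replicate 3 at 231.5 CPM against 173.4 to 178.0 CPM (share 0.909). Rfng was low in LPS replicate 3 at 12.7 CPM against 13.7 to 13.9 CPM (share 0.831). Gja4 was high in LPS + Tan replicate 4 at 74.1 CPM against 30.7 to 32.3 CPM (share 0.943). Ephb4 was high in LPS + Tan replicate 1 at 194.5 CPM against 163.0 to 165.6 CPM (share 0.908). Spen was low in LPS + Tan replicate 4 at 38.5 CPM against 105.7 to 118.4 CPM (share 0.899). Erg was high in LPS + Tan replicate 1 at 115.8 CPM against 107.5 to 108.5 CPM (share 0.883).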

How the results depend on the processing

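The members with an unadjusted p below 0.05 numbered 6 under each alternative run. Beside them passed from 3.02% of all genes, without LPS + Tan replicate 1, to 10.2%, without LPS + Tan replicate 2. The members were chosen on this comparison, so nothing is read from their counts here. The fold changes of all 10 members moved by less than 1 replicate SD in 150 of 150 comparisons, though the sign of Notch4, near 0, was positive in 4 of them. The members past a log2 fold change of 1 numbered 2, but 1 with log2(FPKM + 1), and 1 to 3 with a lung left out. By that rule 0.35% of all tested genes were higher with all lungs, and the share under the alternatives is not given here. The members with groups without overlap numbered 6 in CPM without TMM factors and 5 as a percent of the pan-endothelial sum. Of all tested genes 1.58% were higher without overlap in TMM-scaled CPM, and the share on these other scales is not given here. The other Notch genes with an unadjusted p below 0.05 numbered 2, and 2 to 9 with a lung left out, 9 without LPS + Tan replicate 4, 7 without LPS + Tan replicate 2 and 4 without LPS replicate 1. Over all genes 9.34%, 10.2% and 5.64% passed under these omissions, against 5.12% with all lungs. The arterial markers numbered 5, and 3 to 6 with a lung left out, 3 being without LPS replicate 4, where 4.91% of all genes passed. The 17 other genes with an unadjusted p below 0.05 kept their direction in 255 of 255 comparisons and lost that threshold in 54. The cause of these changes was not tested.

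Lungs with the same number did not deviate together (correlations 0.16, -0.05, -0.16 and 0.04, and 2 of 8 lungs correlated best with their own number). The labels do not say whether equal numbers stand for anything shared, and 8 lungs are too few to settle it. With the replicate block the other Notch genes below an unadjusted p of 0.05 numbered 4, with Notch3 higher and Dll1 lower in addition, and the counts of members (2 and 6) and arterial markers (5) were the same. Over all genes 5.26% passed with the block, against 5.12% without it. Depth does not limit the members, each of which had at least 312 counts in every lung, whereas 4 lungs a group limit the precision of each fold change.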

Other observations

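Some nuclear cofactors of Notch, from a list with 0 calls between the groups when all lungs were fitted, were low in 1 lung. Spen, a large corepressor that binds RBPJ, stood at 38.5 CPM in LPS + Tan replicate 4, against 82.5 to 97.6 CPM in the LPS lungs and 105.7, 118.4 and 109.2 CPM in LPS + Tan replicates 1 to 3. The corepressor Ncor1 stood at 144.4 CPM in that lung, against at least 206.6 CPM in every other lung, and the coactivator Ep300 at 105.4 CPM against at least 147.8 CPM. Kat2b, another coactivator of the list, was at its highest there, at 143.2 CPM against 115.1 to 127.4 CPM elsewhere. Without that lung, Spen, Maml1 and Crebbp were higher in the LPS + Tan group at an unadjusted p below 0.05 by edgeR, 3 calls on a list that had 0, while the genes that were higher went from 2.87% to 4.78% over all genes. The genes named here were picked out after their values were seen, and whether the lung or its library differed was not tested. Of the members, Sox17, Dll4, Lfng, Notch1 and Jag1 were at their lowest of the LPS + Tan group in that lung, at 25.1, 35.5, 45.0, 158.7 and 46.2 CPM, against at least 25.7, 39.0, 47.8, 180.6 and 47.7 CPM, and the other 5 lay inside the range of the group.

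The ETS factor Erg and the flow-responsive factor Klf2, which act in the same vessels as the SOXF factors, gave other patterns, and they too were picked out after their values were seen. Erg stood at 91.4 to 115.8 CPM in the LPS lungs and 107.5 to 115.8 CPM in the LPS + Tan lungs. Klf2 was lowest in LPS + Tan replicates 1 and 3, at 183.7 and 201.8 CPM, which were the highest 2 lungs for Sox17, Hey1 and Efnb2, against 239.6 to 309.2 CPM in the other 6.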
